A study of Homo sapiens with 20 samples.

Results

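Interferon-stimulated effector genes outside the IFIT and OAS families were followed here as a list of 36 gene names, all of which were measured, among 19775 genes tested. Each gene was read from 1 probe set, the one with the highest mean signal over all 20 arrays, and no filter on low signals was applied. RNA came from MII cells (MCF10-T1k), a human mammary epithelial line transformed with RAS, and was hybridised to Affymetrix HG-U133 Plus 2.0 arrays. The 5 groups held 4 arrays each, with replicate letters A to D. Control cells received siRNA against GFP (siGFP). The other groups received siRNA against APC (siAPC), against APC and TAZ together (siAPC/siTAZ), against beta-catenin (sibcat), or against beta-catenin and TAZ together (sibcat/siTAZ). All groups were the same transformed line, received siRNA with the same transfection reagent and were grown in serum-containing medium supplied with insulin, EGF, hydrocortisone and cholera toxin. No group received TAZ siRNA alone. The series title concerns TAZ as a mediator of Wnt signalling. APC belongs to the complex through which beta-catenin, the product of CTNNB1, is degraded, and TAZ, the product of WWTR1, is a coactivator that works with TEAD factors.

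Interferons are secreted proteins that bind receptors coupled to JAK kinases. The kinases activate STAT factors, which together with IRF9 bind the interferon-stimulated response element (ISRE) in the promoters of many target genes. The protein products limit viruses at different steps: ISG15 and its enzymes tag other proteins, MX1, IFITM1 and BST2 act on the entry, replication or release of particles, and nuclear proteins such as IFI16 sense foreign DNA. In epithelial cells such genes usually have a low resting level and are induced by interferon.

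Promoter sequences were examined for the ISRE core because many target genes of interferon carry this element. RefSeq windows of 300 bases around the annotated starts (GRCh38.p14) were at hand for 32 of the 36 genes, in 46 windows. The core, searched on both strands as GAAA, any 2 bases and GAAA again, occurred in the windows of 23 of the 32 genes (71.9%), against 4.38% of 27305 genes with such a window. The stretches below belong to genes on which the later results turn, and they overlap no annotated gene. They are written 5′ to 3′ on the strand of the gene, with the matching bases in capitals, in the orientation with GAAA or in the reverse one with TTTC.
ISG15: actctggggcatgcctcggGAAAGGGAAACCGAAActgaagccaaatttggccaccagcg
IFI6: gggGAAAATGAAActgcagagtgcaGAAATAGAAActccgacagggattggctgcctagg
IFITM1: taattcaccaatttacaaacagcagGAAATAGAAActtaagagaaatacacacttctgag
IFI44: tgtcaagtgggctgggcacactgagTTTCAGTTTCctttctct
IFI44L: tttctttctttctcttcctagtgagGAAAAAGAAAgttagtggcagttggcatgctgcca
SAMD9: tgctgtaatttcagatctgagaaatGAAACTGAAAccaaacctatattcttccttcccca
PLSCR1: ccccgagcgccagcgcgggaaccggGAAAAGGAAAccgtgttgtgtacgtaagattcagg
The ISG15 stretch lies at chr1:1013365-1013424 on the plus strand and holds 2 overlapping matches, the nearer of which begins 107 bases before the start. The IFI6 stretch (chr1:27672251-27672310, minus strand) also holds 2 matches, separate from each other. The remaining stretches hold 1 match each: IFITM1 at chr11:313975-314034 (plus strand), IFI44 at chr1:78649746-78649788 (plus), IFI44L at chr1:78620350-78620409 (plus), SAMD9 at chr7:93118081-93118140 (minus) and PLSCR1 at chr3:146544652-146544711 (minus). The first bases of these matches lie between 18 bases (IFI44) and 136 bases (SAMD9) before the start. Of the other motifs searched on both strands, the STAT element TTCNNNGAA occurred in 10 of 32 genes (31.2%, against 9.38% of all genes). The TEAD element CATTCC occurred in 4 (12.5%, against 16.7%), namely RSAD2, PARP14, IFI16 and IFI35. The TCF element CTTTGAT occurred in none, against 3.18% of all genes. These are matches of letters in 1 window per start, and they show no binding.

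Medians of the arrays ran from 5.07 to 5.11 (log2), and the lowest correlation between arrays of a group was 0.996. The labels call the replicates biological and do not say whether they were separate cultures, so each p-value reflects only the spread among these arrays, which may be technical. Precision is limited by the number of arrays: the differences of the 36 genes had standard errors (SE) of 0.04 to 0.15. Each siRNA lowered its target: APC fell by 0.88 in siAPC cells, CTNNB1 fell by 1.34 in sibcat cells, and WWTR1 fell by 2.67 and 2.21 when TAZ siRNA was added in the siAPC and sibcat backgrounds. WWTR1 also fell by 0.41 with APC siRNA and by 0.43 with beta-catenin siRNA alone. Between sibcat and sibcat/siTAZ cells CTNNB1 fell by another 1.41, so the latter group differed from sibcat by both targets. Between siAPC and siAPC/siTAZ cells APC fell by another 0.46 and CTNNB1 rose by 0.28. The part of these target differences in the results below was not tested. Among markers of other cell types, the common leukocyte gene PTPRC had group means between 2.67 and 2.73, far under the array medians. The summed linear signal of the 11 leukocyte markers measured of 13 listed lay between 426 and 459 in siGFP, 236 and 264 in siAPC, 255 and 272 in siAPC/siTAZ, 386 and 430 in sibcat, and 476 and 525 in sibcat/siTAZ cells, and the mean signal of CD14 among them was 7.83 ± 0.08, 5.13 ± 0.11, 5.68 ± 0.08, 7.60 ± 0.08 and 8.16 ± 0.05 (SD, n = 4). The sum of all 7 fibroblast markers listed was 3000 to 3140 in siAPC, 9080 to 9350 in siAPC/siTAZ, 4180 to 4430 in sibcat and 8560 to 9140 in sibcat/siTAZ cells, against 5820 to 6320 in siGFP cells. Such a linear sum follows its brightest genes, here DCN (group means 11.32 to 12.76) and COL1A1 (8.5 to 11.2). The group means of LUM (2.75 to 2.875) and PDGFRA (3.81 to 3.93) stayed under the array medians. Those of COL3A1 were 5.08 in siAPC and 9.86 in siAPC/siTAZ, 4.55 in sibcat and 8.16 in sibcat/siTAZ, and 5.445 in siGFP cells. Of the 7 fibroblast markers, TAZ siRNA raised 4 and lowered 1 in the siAPC background, where 20.7% of all genes rose and 22.8% fell (limma, adjusted p under 0.05). It raised 3 in the sibcat background, where 18.0% of all genes rose and 13.7% fell. The sum of the 7 epithelial markers measured of 10 listed was 25500 to 25700 in siGFP and 18800 to 18900 in sibcat/siTAZ cells, with the other groups between 18800 and 23800. It also follows bright genes, and these moved in opposite directions. With TAZ siRNA 2 rose and 5 fell in the siAPC background, and 2 rose and 4 fell in the sibcat background, beside the same shares of all genes. In these backgrounds KRT18 fell from 13.085 to 11.74 and from 12.91 to 12.09. KRT5 rose from 11.88 to 12.68 and from 11.58 to 12.34. The sum of all 6 endothelial markers listed lay between 127 and 232 on every array. For ACTB the 3′ probe set exceeded the 5′ one by 1.54 to 1.60 in siAPC, 1.76 to 1.92 in siGFP and sibcat, and 1.87 to 2.12 in both combined groups. The part of these marker sums and of the ACTB ratio in the results was not tested. In such bulk RNA, fewer cells of a type and less RNA per cell cannot be told apart.

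The 36 genes were lowest on the whole after APC siRNA and highest after combined beta-catenin and TAZ siRNA. The median signal over the 36 genes was 7.43 to 7.61 on the siGFP arrays, 7.28 to 7.41 in siAPC, 7.83 to 7.89 in siAPC/siTAZ, 8.28 to 8.37 in sibcat and 8.73 to 8.94 in sibcat/siTAZ cells, so the ranges of the 5 groups did not overlap. The group mean was highest in sibcat/siTAZ cells for 31 of the 36 genes, and lowest in siAPC cells for 22. CMPK2, LAMP3, HERC5, RSAD2 and XAF1 had means over all arrays under 5. Values are log2 signals, differences are log2 differences ± SE, and a gene is called changed at an adjusted p under 0.05 (limma, 2-sided, Benjamini-Hochberg over 19775 genes).

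**Figure D1:**
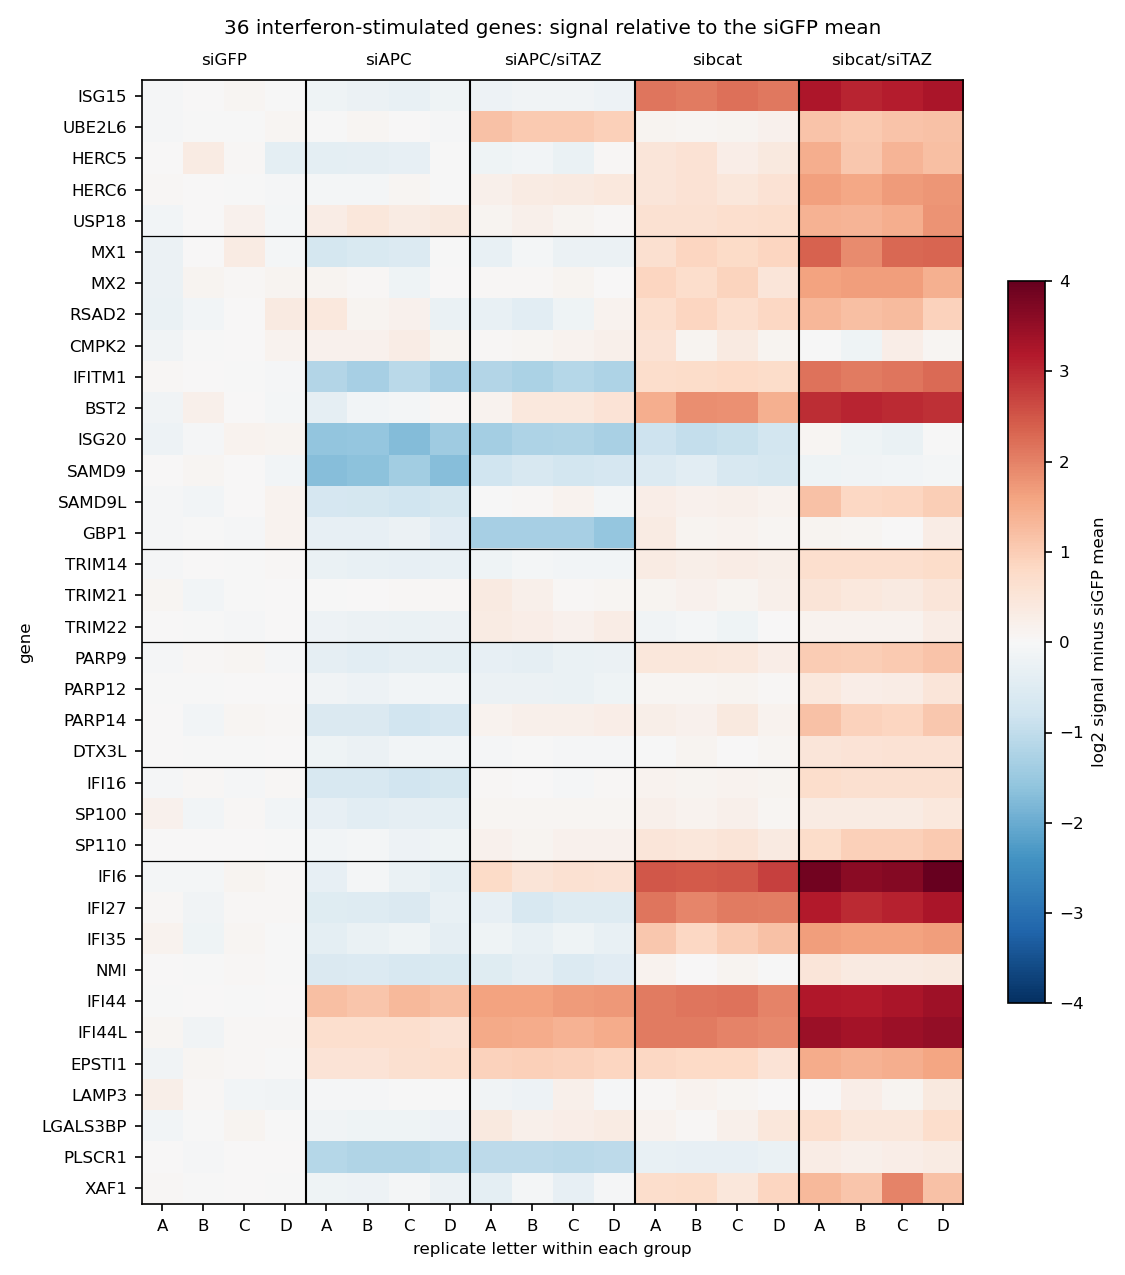
Heat map of the 36 genes (rows, grouped by role) on the 20 arrays (columns, by group and replicate letter); colour is the log2 signal minus the gene's mean over the 4 siGFP arrays. The sibcat/siTAZ columns are the reddest, with IFI6, IFI44L, IFI44, ISG15, IFI27, BST2 and IFITM1 more than 2 above siGFP on each array, and the siAPC columns hold the blue cells of SAMD9, ISG20, IFITM1 and PLSCR1.

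After APC siRNA alone, 21 of the 36 genes fell and 4 rose. Among all genes tested, 18.7% fell and 21.3% rose in this comparison. The median difference of the 36 genes was -0.23, against -0.0025 over all genes. After beta-catenin siRNA alone, 26 genes rose and 3 fell, where 21.4% of all genes rose and 15.7% fell, and the median difference was 0.34 against 0. Of the 36 genes, 7 rose at least 2-fold, as did 0.996% of all genes. Both comparisons use the same siGFP arrays. Set directly against each other, which uses no control array, siAPC cells had lower signals than sibcat cells for 31 of the 36 genes and a higher signal for none (limma, also none at an unadjusted p under 0.05), where 17.5% of all genes were lower and 16.3% higher. The median of that difference was -0.70.

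**Figure D2:**
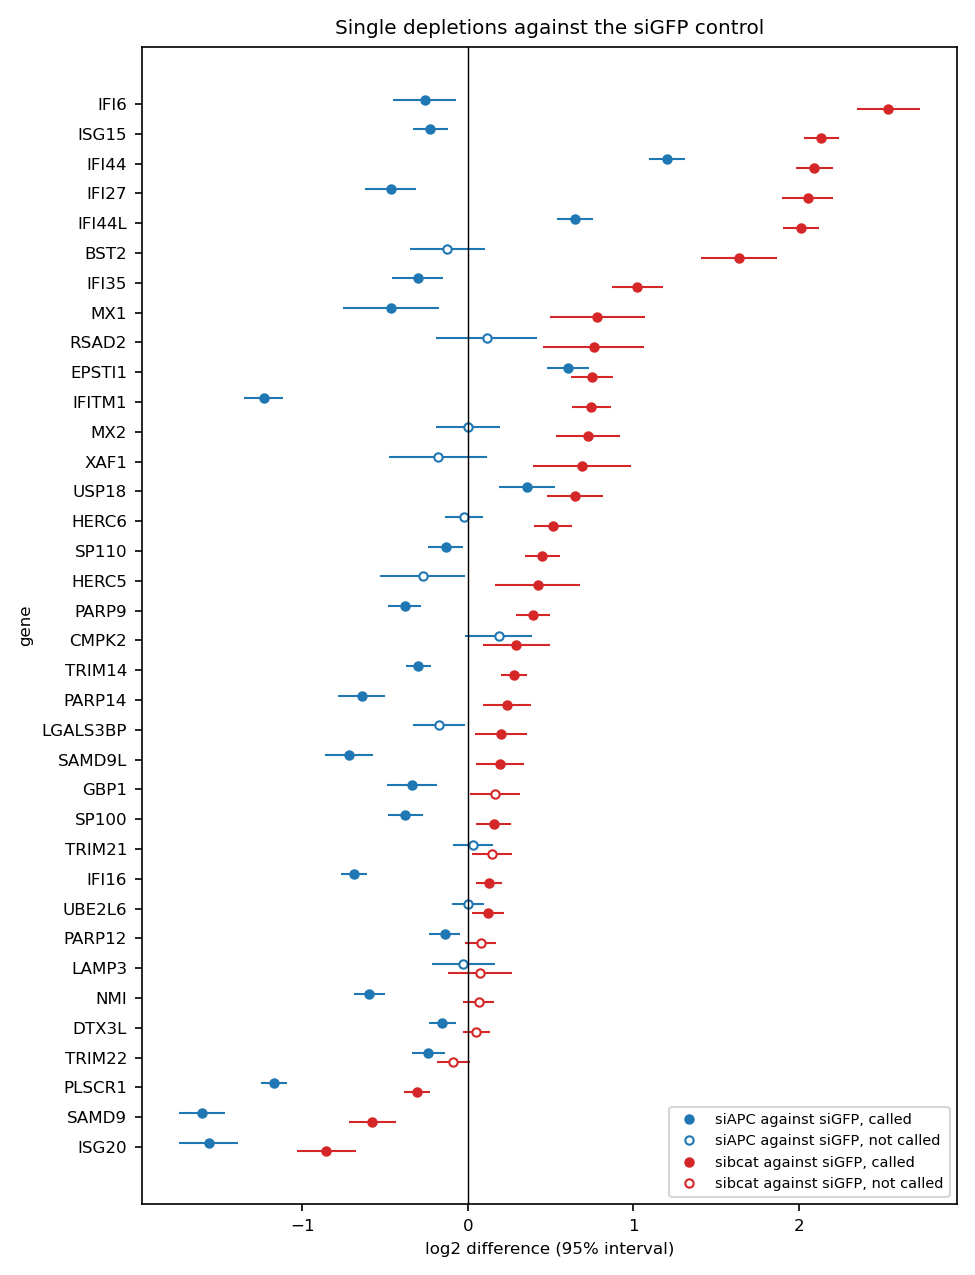
Log2 difference from siGFP with its 95% interval for each of the 36 genes (rows) after APC siRNA (blue) and beta-catenin siRNA (red); filled points passed the test and open points did not. IFI6 (2.54), ISG15 (2.14), IFI44 (2.09), IFI27 (2.05) and IFI44L (2.02) stand farthest to the right after beta-catenin siRNA, and SAMD9 (-1.61) and ISG20 (-1.57) farthest to the left after APC siRNA.

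Addition of TAZ siRNA raised 33 of the 36 genes in the sibcat background and lowered none, where 18.0% of all genes rose and 13.7% fell. One gene, CMPK2, was lower at an unadjusted p under 0.05 (limma, adjusted p = 0.0503). In the siAPC background TAZ siRNA raised 20 and lowered 2, USP18 and GBP1, where 20.7% of all genes rose and 22.8% fell. The medians were 0.67 (0.005 over all genes) in the sibcat and 0.17 (-0.025 over all genes) in the siAPC background. The latter was 0.2925 with genes under a mean signal of 5 left out and 0.3338 with those under 7 left out. In the direct test of the difference between the backgrounds, the TAZ siRNA effect was lower in siAPC than in sibcat cells for 24 genes (15.5% of all genes) and higher for 4 (12.2%). Against siGFP, sibcat/siTAZ cells had 31 genes higher and none lower (limma, also none lower at an unadjusted p under 0.05), where 25.4% of all genes were higher and 19.5% lower, and 19 were higher at least 2-fold (1.42% of all genes). The siAPC/siTAZ cells had 12 higher and 12 lower, where 23.0% and 24.3% of all genes were.

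**Figure D3:**
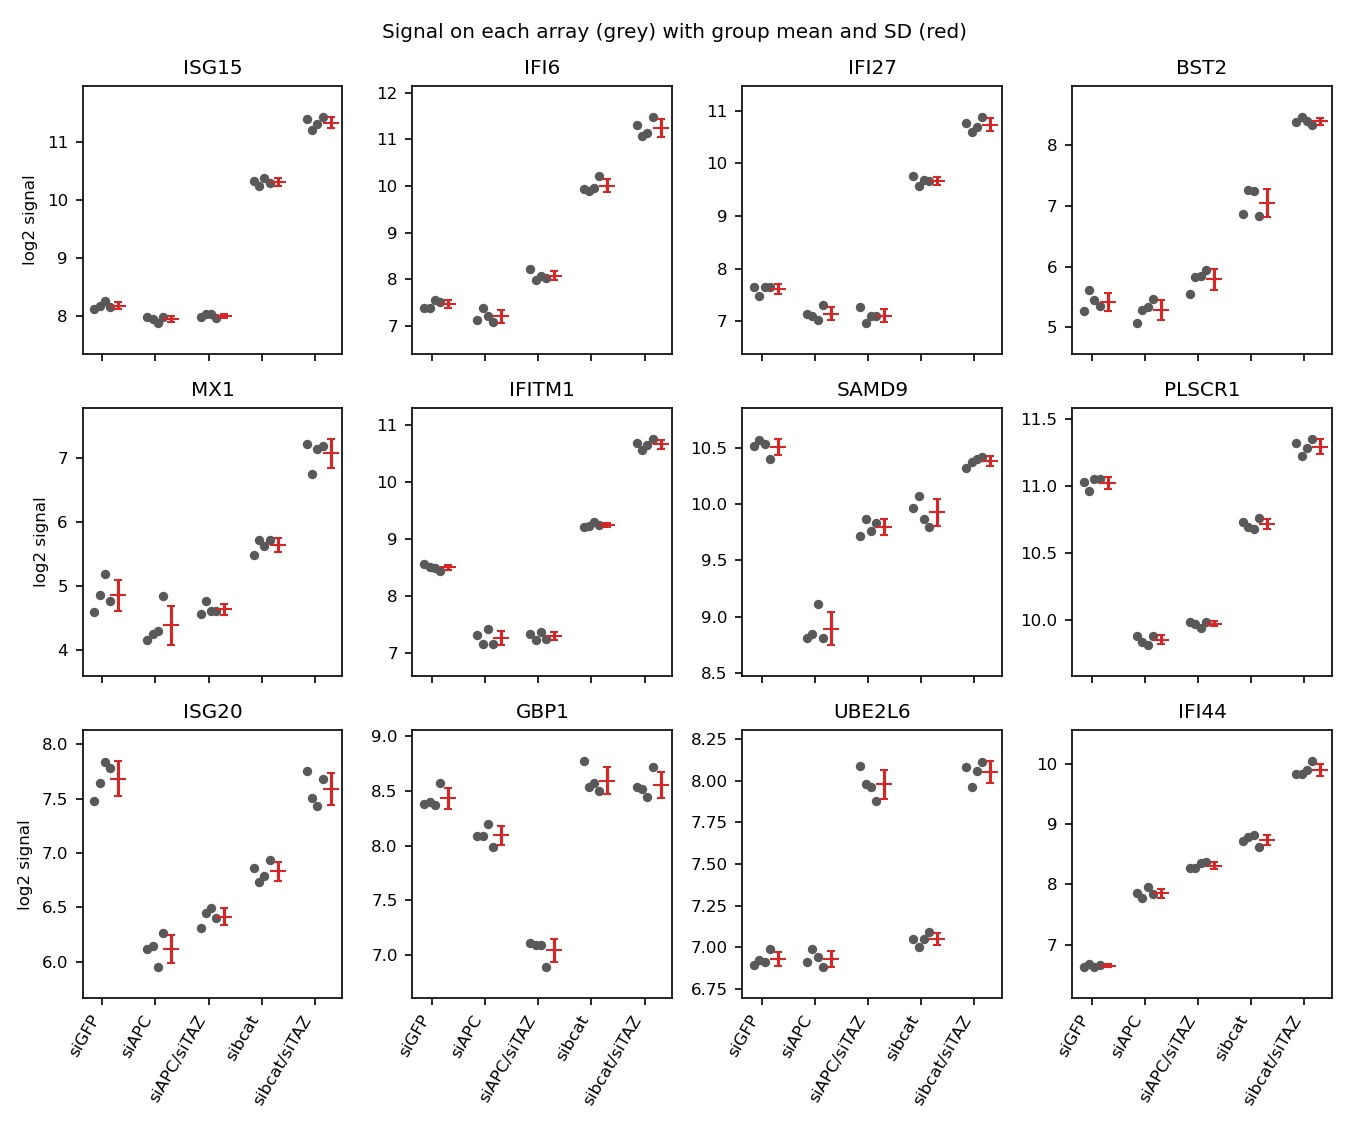
Log2 signal on each array (grey points) with the group mean and SD (red) for genes named in the text, 4 arrays per group; each panel has its own axis, which does not start at 0. ISG15, IFI6 and IFI27 step up from siGFP to sibcat to sibcat/siTAZ, SAMD9, PLSCR1 and ISG20 drop in siAPC cells, GBP1 is lowest in siAPC/siTAZ cells, and UBE2L6 is high in both TAZ siRNA groups.

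ISG15 is a ubiquitin-like protein that is secreted and also joined to other proteins. The ISG15 signal was 8.12, 8.18, 8.26 and 8.15 on siGFP arrays A to D, 7.99, 7.94, 7.88 and 7.99 in siAPC cells and 7.98, 8.04, 8.03 and 7.96 in siAPC/siTAZ cells. It was 10.33, 10.24, 10.39 and 10.29 in sibcat cells and 11.40, 11.21, 11.32 and 11.43 in sibcat/siTAZ cells. Both groups with beta-catenin siRNA lay above all others without overlap, and both groups with APC siRNA lay below the control. ISG15 rose 4.39-fold after beta-catenin siRNA (2.14 ± 0.05, adjusted p = 4.15e-17) and a further 2.04-fold with TAZ siRNA (1.03 ± 0.05, adjusted p = 2.36e-12). It fell slightly after APC siRNA (-0.23 ± 0.05, adjusted p = 0.000842). In the siAPC background the difference with TAZ siRNA was 0.05 ± 0.05 (adjusted p = 0.44), and the 2 TAZ siRNA effects differed by -0.98 ± 0.07.

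UBE2L6 encodes the conjugating enzyme for ISG15, and its pattern was different. The UBE2L6 signal was 6.89, 6.92, 6.91 and 6.99 on the siGFP arrays, 6.91, 6.99, 6.94 and 6.88 in siAPC and 7.05, 7.0, 7.05 and 7.09 in sibcat cells. It was 8.09, 7.98, 7.96 and 7.88 in siAPC/siTAZ and 8.08, 7.96, 8.06 and 8.11 in sibcat/siTAZ cells. The groups with TAZ siRNA overlapped each other and stood about 1 unit above the 3 groups without it. TAZ siRNA raised UBE2L6 by 1.05 ± 0.05 in the siAPC background (adjusted p = 2.55e-13) and by 1.01 ± 0.05 in the sibcat background (adjusted p = 1.03e-12), and the effects differed by 0.04 ± 0.06 (95% interval -0.09 to 0.18, adjusted p = 0.712). After beta-catenin siRNA alone UBE2L6 was higher by 0.12 ± 0.05 (adjusted p = 0.0466). That call was lost, at 0.11 to 0.12 and adjusted p of 0.051 to 0.112, in turn without siGFP array A, B or C, sibcat A, C or D, siAPC A, C or D, siAPC/siTAZ B or C, or sibcat/siTAZ A or C. It was also lost with quantile normalization repeated (0.09, adjusted p = 0.168), with the replicate letter as a block (adjusted p = 0.0656), with a robust variance trend (adjusted p = 0.0773), with the arrays of the 2 groups alone (adjusted p = 0.0799) and with each probe set tested on its own (adjusted p = 0.0696).

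The other 3 genes of the ISG15 system were the ligases HERC5 and HERC6 and the protease USP18, which removes ISG15 from its targets and restrains interferon receptor signalling. HERC6 had means of 7.31 ± 0.05 (SD, n = 4) in siGFP, 7.29 in siAPC, 7.65 in siAPC/siTAZ, 7.83 in sibcat and 8.98 in sibcat/siTAZ cells. HERC6 rose by 0.52 ± 0.05 with beta-catenin siRNA and by 1.16 ± 0.05 and 0.36 ± 0.05 with TAZ siRNA in the sibcat and siAPC backgrounds. The last of these was 0.14 (adjusted p = 0.0732) when the mean over both HERC6 probe sets was used, and there the difference between siAPC and sibcat (-0.54) was -0.14 (adjusted p = 0.0832). HERC5, at a low signal, went from 3.30 ± 0.29 in siGFP to 3.72 ± 0.13 in sibcat and 4.57 ± 0.17 in sibcat/siTAZ cells, and both steps passed the test. HERC5 in siAPC cells differed from control by -0.27 ± 0.12 (adjusted p = 0.0885), a difference that passed only without siGFP array D (-0.40, adjusted p = 0.00618) or siAPC array D (-0.36, adjusted p = 0.0322). USP18 is 1 of 4 genes that rose with each single depletion, from 5.80 ± 0.13 to 6.16 ± 0.07 in siAPC and 6.45 ± 0.05 in sibcat cells. TAZ siRNA then moved it in opposite directions, to 5.91 in siAPC/siTAZ cells (-0.25 ± 0.08, adjusted p = 0.0184) and to 7.30 in sibcat/siTAZ cells (0.85 ± 0.08). The fall was lost without siAPC array B (-0.22, adjusted p = 0.0575) or siAPC/siTAZ array D (-0.22, adjusted p = 0.0549), while the difference between the effects (-1.10 ± 0.11, adjusted p = 3.78e-07) passed the test under each alternative run.

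Among the 10 genes with antiviral restriction activity, 6 fell and none rose after APC siRNA (limma, none at an unadjusted p under 0.05), 7 rose and 2 fell after beta-catenin siRNA, and TAZ siRNA raised 4 in the siAPC and 8 in the sibcat background. The shares of all genes were, in the same order, 18.7% and 21.3%, 21.4% and 15.7%, and 20.7% and 18.0%. IFITM1, a membrane protein that blocks fusion of viral particles, was 8.56, 8.52, 8.50 and 8.45 on the siGFP arrays, 7.32, 7.17, 7.43 and 7.17 in siAPC and 7.34, 7.23, 7.37 and 7.26 in siAPC/siTAZ cells. Its signal was 9.21, 9.24, 9.31 and 9.25 in sibcat and 10.69, 10.57, 10.65 and 10.76 in sibcat/siTAZ cells. The groups with APC siRNA overlapped each other more than 1 unit below the control, and the groups with beta-catenin siRNA stood above it. IFITM1 fell by 1.24 ± 0.06 after APC siRNA (adjusted p = 6.34e-13), rose by 0.75 ± 0.06 after beta-catenin siRNA (adjusted p = 2.05e-09) and rose by a further 1.42 ± 0.06 with TAZ siRNA. In the siAPC background IFITM1 differed by 0.03 ± 0.06 with TAZ siRNA (95% interval -0.09 to 0.15), and the difference of -1.39 ± 0.08 between the effects was the largest among the 36 genes.

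MX1, a dynamin-like GTPase that traps viral nucleocapsids, was at or below the array medians in the groups without beta-catenin siRNA, apart from 1 siGFP array. MX1 signals were 4.60, 4.86, 5.18 and 4.76 in siGFP, 4.16, 4.25, 4.29 and 4.84 in siAPC and 4.56, 4.76, 4.61 and 4.61 in siAPC/siTAZ cells. They were 5.48, 5.71, 5.63 and 5.71 in sibcat and 7.22, 6.74, 7.14 and 7.18 in sibcat/siTAZ cells. The first 3 groups overlapped, and the sibcat/siTAZ group stood highest although its array B lay under the other 3. MX1 rose by 0.78 ± 0.14 in sibcat (adjusted p = 0.000112) and by 1.44 ± 0.14 more in sibcat/siTAZ cells (adjusted p = 6.7e-08), and fell by 0.47 ± 0.14 in siAPC cells (adjusted p = 0.01). The difference with TAZ siRNA in the siAPC background, 0.25 ± 0.14 (adjusted p = 0.161), passed the test only without siAPC array D (0.40, adjusted p = 0.0101). The related MX2 had means of 4.78, 4.78 and 4.84 in siGFP, siAPC and siAPC/siTAZ cells, and rose to 5.51 ± 0.19 in sibcat and 6.38 ± 0.12 in sibcat/siTAZ cells.

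BST2, or tetherin, holds budding particles at the cell surface. The BST2 signal was 5.26, 5.61, 5.44 and 5.35 in siGFP, 5.07, 5.29, 5.33 and 5.47 in siAPC and 5.54, 5.83, 5.84 and 5.95 in siAPC/siTAZ cells. In sibcat cells it was 6.87, 7.26, 7.24 and 6.84, and in sibcat/siTAZ cells it was 8.38, 8.47, 8.40 and 8.34. The siGFP arrays overlapped siAPC and siAPC/siTAZ, and the sibcat/siTAZ arrays stood above all others. BST2 rose by 1.64 ± 0.11 (3.11-fold, adjusted p = 2.89e-10) with beta-catenin siRNA, and TAZ siRNA raised it by 1.35 ± 0.11 in the sibcat and by 0.50 ± 0.11 in the siAPC background (adjusted p = 0.000728). Relative to siGFP, the combined beta-catenin and TAZ siRNA raised BST2 7.9-fold.

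SAMD9 and SAMD9L are paralogous cytoplasmic factors that act against poxviruses, and their genes are neighbours with no other protein-coding gene between them. The SAMD9 signal was 10.51, 10.57, 10.53 and 10.40 in siGFP, 8.81, 8.85, 9.11 and 8.81 in siAPC and 9.72, 9.87, 9.76 and 9.83 in siAPC/siTAZ cells. It was 9.96, 10.07, 9.87 and 9.80 in sibcat and 10.32, 10.37, 10.40 and 10.42 in sibcat/siTAZ cells. The control arrays were among the highest, and all 4 siAPC arrays lay below those of each other group. SAMD9 fell by 1.61 ± 0.07 with APC siRNA (3.05-fold, adjusted p = 1.46e-13) and by 0.58 ± 0.07 with beta-catenin siRNA (adjusted p = 7.42e-07). TAZ siRNA raised it by 0.90 ± 0.07 in the siAPC and by 0.45 ± 0.07 in the sibcat background, and the larger effect in the siAPC background (0.45 ± 0.09, adjusted p = 0.0011) is 1 of 4 in that direction. SAMD9 in sibcat/siTAZ cells differed from siGFP by -0.13 ± 0.07 (adjusted p = 0.145).

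SAMD9L signals were 7.37, 7.31, 7.44 and 7.57 in siGFP, 6.75, 6.73, 6.62 and 6.71 in siAPC and 7.40, 7.47, 7.56 and 7.34 in siAPC/siTAZ cells. In sibcat cells they were 7.68, 7.59, 7.62 and 7.57, and in sibcat/siTAZ cells 8.59, 8.25, 8.28 and 8.41. The siAPC arrays were again the lowest, while siGFP overlapped siAPC/siTAZ and sibcat. SAMD9L fell by 0.72 ± 0.07 with APC siRNA (adjusted p = 5e-08) and rose with TAZ siRNA by 0.74 ± 0.07 and 0.77 ± 0.07 in the siAPC and sibcat backgrounds (difference of the effects -0.03 ± 0.10, adjusted p = 0.888). The rise of 0.19 ± 0.07 with beta-catenin siRNA (adjusted p = 0.0359) was lost without siGFP array A, B or C or sibcat array A, B or C, at 0.16 to 0.20 and adjusted p of 0.0507 to 0.121. It was also lost when the values were quantile normalized again (0.15, adjusted p = 0.09).

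ISG20, an exonuclease that degrades viral RNA, was the restriction gene with the largest fall after beta-catenin siRNA. Its signal was 7.48, 7.64, 7.84 and 7.78 in siGFP, 6.12, 6.14, 5.95 and 6.26 in siAPC and 6.31, 6.45, 6.49 and 6.40 in siAPC/siTAZ cells. It was 6.86, 6.73, 6.79 and 6.94 in sibcat and 7.75, 7.51, 7.43 and 7.68 in sibcat/siTAZ cells. Both single depletions and siAPC/siTAZ lay below the control without overlap, and sibcat/siTAZ overlapped it. ISG20 fell by 1.57 ± 0.08 with APC siRNA (adjusted p = 7.33e-12) and by 0.86 ± 0.08 with beta-catenin siRNA (adjusted p = 8.21e-08), and TAZ siRNA raised it by 0.30 ± 0.08 and 0.76 ± 0.08 in the siAPC and sibcat backgrounds.

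GBP1, a GTPase that attacks the vacuoles of intracellular pathogens and responds mainly to interferon gamma, was the member that TAZ siRNA lowered most. GBP1 was 8.38, 8.40, 8.37 and 8.57 in siGFP, 8.09, 8.09, 8.20 and 7.99 in siAPC and 7.11, 7.09, 7.09 and 6.89 in siAPC/siTAZ cells. It was 8.77, 8.53, 8.57 and 8.50 in sibcat and 8.53, 8.52, 8.44 and 8.72 in sibcat/siTAZ cells. The siAPC/siTAZ arrays lay about 1 unit under all others, and the siGFP, sibcat and sibcat/siTAZ arrays overlapped. TAZ siRNA lowered GBP1 in the siAPC background (-1.05 ± 0.07, adjusted p = 2.76e-10), and 2 of its 3 further probe sets fell there, by 0.79 and 1.07, while the dimmest differed by -0.10 (adjusted p = 0.603). In the sibcat background GBP1 differed by -0.04 ± 0.07 (95% interval -0.19 to 0.11), and the difference of the effects was -1.01 ± 0.10 (adjusted p = 2.64e-07). GBP1 fell by 0.34 ± 0.07 with APC siRNA (adjusted p = 0.000743). With beta-catenin siRNA it differed by 0.16 ± 0.07 (adjusted p = 0.0908), and that difference passed only without siGFP array D (0.21, adjusted p = 0.0361), with genes under a mean signal of 7 left out (0.16, adjusted p = 0.037) or with a robust variance trend (adjusted p = 0.0422).

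The last 2 restriction genes, RSAD2 (viperin, which makes a chain-terminating nucleotide) and the nucleotide kinase CMPK2, are neighbours and were both dim. RSAD2 had means of 3.42 ± 0.27, 3.54 ± 0.28 and 3.24 ± 0.24 in siGFP, siAPC and siAPC/siTAZ cells. It rose to 4.18 ± 0.11 in sibcat (adjusted p = 0.000277) and to 4.60 ± 0.18 in sibcat/siTAZ cells (adjusted p = 0.0364). The second step of 0.41 was lost without sibcat array A or C or sibcat/siTAZ array A, B or C, at 0.36 to 0.40 and adjusted p of 0.0718 to 0.0998, and with the replicate letter as a block (adjusted p = 0.0589). In the siAPC background RSAD2 differed by -0.30 ± 0.15 with TAZ siRNA (adjusted p = 0.109), which passed without siAPC array D (-0.42, adjusted p = 0.0227) or siAPC/siTAZ array D (-0.41, adjusted p = 0.032), and with the mean of both probe sets (-0.30, adjusted p = 0.00459). CMPK2 group means lay between 2.30 and 2.59, and its rise of 0.29 ± 0.10 in sibcat cells (adjusted p = 0.0222) was lost without siGFP array A or sibcat array A or C, at 0.20 to 0.27 and adjusted p of 0.0595 to 0.103, and with the arrays of the 2 groups alone (adjusted p = 0.0606). Its difference in sibcat/siTAZ against sibcat (-0.26 ± 0.10) passed as a fall without siGFP array A, sibcat array B or D, or sibcat/siTAZ array C, at -0.33 to -0.26 and adjusted p of 0.0126 to 0.0498, and with quantile normalization repeated, the replicate block or a robust variance trend (adjusted p of 0.0424 to 0.0446).

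The 3 genes of the TRIM family, ubiquitin ligases or adaptors of antiviral signalling, all rose with TAZ siRNA in the sibcat background. TRIM14, an adaptor at mitochondria, was 9.87, 9.96, 9.92 and 9.98 in siGFP, 9.67, 9.63, 9.61 and 9.62 in siAPC and 9.75, 9.86, 9.82 and 9.82 in siAPC/siTAZ cells. It was 10.26, 10.18, 10.23 and 10.17 in sibcat and 10.59, 10.60, 10.61 and 10.66 in sibcat/siTAZ cells. No pair of the 5 groups overlapped, and the order from low to high was siAPC, siAPC/siTAZ, siGFP, sibcat and sibcat/siTAZ. TRIM14 fell by 0.30 ± 0.04 with APC siRNA and rose by 0.28 ± 0.04 with beta-catenin siRNA (adjusted p = 1.19e-06 and 3.97e-06), and TAZ siRNA raised it by 0.18 ± 0.04 and 0.41 ± 0.04 in the siAPC and sibcat backgrounds. The smaller effect in the siAPC background (-0.23, adjusted p = 0.00231) was -0.06 (adjusted p = 0.509) with the mean of all TRIM14 probe sets.

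TRIM22, which restricts retroviruses, rose with TAZ siRNA by 0.51 ± 0.05 in the siAPC background, from 10.62 ± 0.03 to 11.13 ± 0.07, and by 0.27 ± 0.05 in the sibcat background, from 10.77 ± 0.08 to 11.04 ± 0.08. The effects differed by 0.24 ± 0.07 (adjusted p = 0.0101), the siAPC background having the larger. TRIM22 was 10.86 ± 0.03 in siGFP cells and fell by 0.24 ± 0.05 with APC siRNA. TRIM21, a cytosolic antibody receptor, rose by 0.30 ± 0.06 in sibcat/siTAZ against sibcat cells and had group means between 6.72 and 7.16. Its difference of 0.15 ± 0.06 in sibcat cells (adjusted p = 0.0517) passed without siGFP array A or siAPC/siTAZ array A, C or D, at 0.15 to 0.18 and adjusted p of 0.0186 to 0.0476, with genes under a mean signal of 5 left out (0.15, adjusted p = 0.0293) and with arrays centred on their medians (0.17, adjusted p = 0.0245). Its difference of 0.14 ± 0.06 in siAPC/siTAZ against siAPC cells (adjusted p = 0.0619) passed without siAPC/siTAZ array C (0.17, adjusted p = 0.0259) or D (0.17, adjusted p = 0.031), and with genes under a mean signal of 5 left out (adjusted p = 0.0368).

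The 4 genes for ADP-ribosyltransferases and their partner, PARP9, PARP12, PARP14 and DTX3L, all fell with APC siRNA and all rose with TAZ siRNA in the sibcat background. PARP9 forms a complex with the ubiquitin ligase DTX3L, and the PARP9 and DTX3L genes adjoin. PARP9 signals were 8.34, 8.43, 8.48 and 8.34 in siGFP, 8.04, 7.98, 8.03 and 8.01 in siAPC and 8.06, 8.05, 8.13 and 8.17 in siAPC/siTAZ cells. They were 8.84, 8.84, 8.81 and 8.67 in sibcat and 9.41, 9.38, 9.43 and 9.53 in sibcat/siTAZ cells. Both APC siRNA groups lay under the control and both beta-catenin siRNA groups above it, without overlap. PARP9 fell by 0.38 ± 0.05 with APC siRNA, rose by 0.39 ± 0.05 with beta-catenin siRNA (adjusted p = 1.69e-06 and 1.49e-06) and rose by 0.65 ± 0.05 more with TAZ siRNA. In the siAPC background PARP9 differed by 0.09 ± 0.05 (adjusted p = 0.159) with TAZ siRNA, although its 4 arrays all lay above those of siAPC.

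PARP14, which modifies proteins with single ADP-ribose units, responded to TAZ siRNA in both backgrounds. Its signal was 7.65, 7.52, 7.73 and 7.68 in siGFP, 7.08, 7.07, 6.88 and 6.98 in siAPC and 7.78, 7.84, 7.84 and 7.90 in siAPC/siTAZ cells. It was 7.89, 7.81, 8.02 and 7.80 in sibcat and 8.81, 8.56, 8.51 and 8.71 in sibcat/siTAZ cells. The siAPC arrays were lowest and the sibcat/siTAZ arrays highest, and siAPC/siTAZ overlapped sibcat. PARP14 fell by 0.64 ± 0.07 with APC siRNA (adjusted p = 1.79e-07), and TAZ siRNA raised it by 0.84 ± 0.07 and 0.77 ± 0.07 in the siAPC and sibcat backgrounds (difference 0.07 ± 0.10, 95% interval -0.13 to 0.27). The rise of 0.24 ± 0.07 with beta-catenin siRNA (adjusted p = 0.00949) was 0.08 (adjusted p = 0.271) with the mean of both PARP14 probe sets.

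DTX3L and PARP12, which binds viral RNA, moved less. DTX3L had means of 9.03 ± 0.02 in siGFP, 8.87 ± 0.07 in siAPC, 9.0 ± 0.02 in siAPC/siTAZ, 9.08 ± 0.06 in sibcat and 9.56 ± 0.04 in sibcat/siTAZ cells. TAZ siRNA raised it by 0.48 ± 0.04 in the sibcat and by 0.12 ± 0.04 in the siAPC background, the latter lost without siAPC array B (0.10, adjusted p = 0.0711). PARP12 fell by 0.14 ± 0.04 with APC siRNA (adjusted p = 0.0152), a call lost without siAPC array B (-0.12, adjusted p = 0.0533) and with arrays centred on their medians (-0.12, adjusted p = 0.0574). PARP12 rose by 0.29 ± 0.04 with TAZ siRNA in the sibcat background, to 8.46 ± 0.10, and differed by -0.08 ± 0.04 in the siAPC background (adjusted p = 0.177).

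The nuclear genes IFI16, SP100 and SP110 rose with TAZ siRNA in both backgrounds. IFI16 is a sensor of nuclear and cytosolic DNA, and SP100 and SP110 are chromatin-binding proteins of nuclear bodies. IFI16 was 10.82, 10.91, 10.83 and 10.90 in siGFP, 10.21, 10.23, 10.11 and 10.15 in siAPC and 10.92, 10.89, 10.82 and 10.90 in siAPC/siTAZ cells. It was 11.02, 10.96, 11.01 and 10.98 in sibcat and 11.57, 11.50, 11.49 and 11.52 in sibcat/siTAZ cells. The siAPC arrays stood alone at the bottom and sibcat/siTAZ at the top, and siAPC/siTAZ overlapped the control. IFI16 fell by 0.69 ± 0.04 with APC siRNA (adjusted p = 1.06e-11), and TAZ siRNA raised it by 0.71 ± 0.04 and 0.53 ± 0.04 in the siAPC and sibcat backgrounds, with a difference of 0.18 ± 0.05 (adjusted p = 0.0154). Its rise of 0.13 ± 0.04 with beta-catenin siRNA (adjusted p = 0.0113) was lost when only the arrays of the 2 groups were fitted (adjusted p = 0.0616).

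SP100 was 9.15, 8.89, 9.04 and 8.88 in siGFP, 8.65, 8.58, 8.62 and 8.59 in siAPC and 9.08, 9.08, 9.06 and 9.08 in siAPC/siTAZ cells. In sibcat it was 9.18, 9.14, 9.19 and 9.07, and in sibcat/siTAZ cells 9.33, 9.32, 9.31 and 9.40. The siAPC arrays were lowest, and siGFP overlapped sibcat and siAPC/siTAZ. SP100 fell by 0.38 ± 0.05 with APC siRNA and rose with TAZ siRNA by 0.47 ± 0.05 in the siAPC background (adjusted p = 3.36e-06 and 1.87e-07) and by 0.20 ± 0.05 in the sibcat background (adjusted p = 0.00479). The last value was 0.07 (adjusted p = 0.355) with the mean of the 6 SP100 probe sets. The rise of 0.16 ± 0.05 with beta-catenin siRNA (adjusted p = 0.0194) was 0.08 (adjusted p = 0.305) with that mean and was lost without siGFP array B or D or sibcat array A or C, at 0.12 to 0.14 and adjusted p of 0.0534 to 0.0811. The values quantile normalized again gave 0.12 (adjusted p = 0.0815), and the arrays of the 2 groups alone gave an adjusted p of 0.117. One SP100 probe set was lower in sibcat/siTAZ than in siGFP cells (-0.33), the only call among the 32 further probe sets that went against the chosen probe set of its gene.

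SP110 was 8.04, 8.04, 8.05 and 8.03 in siGFP, 7.93, 7.96, 7.85 and 7.88 in siAPC and 8.22, 8.16, 8.20 and 8.21 in siAPC/siTAZ cells. It was 8.52, 8.48, 8.55 and 8.41 in sibcat and 8.78, 8.99, 8.99 and 9.08 in sibcat/siTAZ cells. The 5 groups did not overlap, and the order from low to high was siAPC, siGFP, siAPC/siTAZ, sibcat and sibcat/siTAZ. SP110 rose by 0.45 ± 0.05 with beta-catenin siRNA (adjusted p = 5.26e-07), and TAZ siRNA raised it by 0.29 ± 0.05 and 0.47 ± 0.05 in the siAPC and sibcat backgrounds. The fall of 0.14 ± 0.05 with APC siRNA (adjusted p = 0.0406) was lost without any 1 of the siGFP arrays or without siAPC array A, C or D, at -0.14 to -0.12 and adjusted p of 0.0544 to 0.11. It was -0.05 (adjusted p = 0.407) with the mean of all SP110 probe sets, -0.11 (adjusted p = 0.0998) with arrays centred on their medians and -0.14 with the replicate block (adjusted p = 0.0602) or with each probe set tested on its own (adjusted p = 0.0558). The SP110 and SP100 genes lie near each other, with 2 protein-coding genes between them.

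Of the remaining 11 genes, 8 rose and 1 fell after beta-catenin siRNA, 3 rose and 5 fell after APC siRNA, and TAZ siRNA raised 7 in the siAPC and 10 in the sibcat background. The shares of all genes were, in that order, 21.4% and 15.7%, 21.3% and 18.7%, and 20.7% and 18.0%. IFI6 is a small membrane protein that protects cells from apoptosis and flavivirus replication. Its signal was 7.39, 7.38, 7.56 and 7.52 in siGFP, 7.12, 7.39, 7.21 and 7.08 in siAPC and 8.22, 7.99, 8.07 and 8.03 in siAPC/siTAZ cells. It was 9.94, 9.90, 9.96 and 10.21 in sibcat and 11.31, 11.06, 11.13 and 11.48 in sibcat/siTAZ cells. The sibcat/siTAZ arrays lay above the sibcat arrays, both far above the rest, and siAPC/siTAZ lay above siGFP and siAPC, which overlapped. IFI6 rose 5.82-fold with beta-catenin siRNA (2.54 ± 0.09, adjusted p = 2.53e-14), and TAZ siRNA raised it by 1.24 ± 0.09 in the sibcat and by 0.88 ± 0.09 in the siAPC background. Combined beta-catenin and TAZ siRNA gave 13.8-fold the siGFP signal, the largest fold among the 36 genes. The fall of 0.26 ± 0.09 with APC siRNA (adjusted p = 0.0264) was lost without siGFP array C or D or siAPC array A or D, at -0.24 to -0.22 and adjusted p of 0.0652 to 0.0861. The difference between the TAZ siRNA effects (-0.37 ± 0.13, adjusted p = 0.0404) was lost, at -0.36 to -0.29 and adjusted p of 0.0613 to 0.0934, in turn without siAPC array B or C, siAPC/siTAZ B, C or D, sibcat A, B or C, or sibcat/siTAZ A or D, and with the arrays of the groups compared alone (adjusted p = 0.0571).

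IFI27, a mitochondrial relative of IFI6, rose with beta-catenin siRNA and, in that background, with TAZ siRNA. Its signal was 7.66, 7.48, 7.66 and 7.65 in siGFP, 7.14, 7.11, 7.02 and 7.31 in siAPC and 7.27, 6.97, 7.10 and 7.10 in siAPC/siTAZ cells. It was 9.75, 9.57, 9.68 and 9.66 in sibcat and 10.77, 10.60, 10.69 and 10.88 in sibcat/siTAZ cells. The groups with APC siRNA overlapped each other below the control. IFI27 rose by 2.05 ± 0.07 (4.15-fold, adjusted p = 2.49e-14) with beta-catenin siRNA and by a further 1.07 ± 0.07 with TAZ siRNA, and fell by 0.47 ± 0.07 with APC siRNA (adjusted p = 2.67e-05). The difference with TAZ siRNA in the siAPC background was -0.04 ± 0.07 (95% interval -0.19 to 0.12), and the effects differed by -1.11 ± 0.10 (adjusted p = 9.14e-08).

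IFI44 and IFI44L are cytoplasmic proteins related in sequence, and their genes adjoin. With EPSTI1 and USP18 they are the 4 genes that APC siRNA raised. IFI44 was 6.63, 6.68, 6.63 and 6.66 in siGFP, 7.85, 7.77, 7.95 and 7.84 in siAPC and 8.27, 8.27, 8.35 and 8.37 in siAPC/siTAZ cells. It was 8.73, 8.79, 8.82 and 8.63 in sibcat and 9.84, 9.83, 9.90 and 10.05 in sibcat/siTAZ cells. The 5 groups did not overlap and rose in the order siGFP, siAPC, siAPC/siTAZ, sibcat and sibcat/siTAZ. IFI44 rose by 1.20 ± 0.05 with APC siRNA and by 2.09 ± 0.05 with beta-catenin siRNA (adjusted p = 3.85e-13 and 1.46e-16), and TAZ siRNA raised it by 0.46 ± 0.05 and 1.16 ± 0.05 in the siAPC and sibcat backgrounds, with a difference of -0.70 ± 0.08 (adjusted p = 5.45e-07).

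IFI44L signals were 7.40, 7.21, 7.37 and 7.37 in siGFP, 8.0, 8.01, 8.0 and 7.93 in siAPC and 8.86, 8.83, 8.73 and 8.81 in siAPC/siTAZ cells. In sibcat they were 9.42, 9.42, 9.31 and 9.26, and in sibcat/siTAZ cells 10.75, 10.66, 10.76 and 10.85. The order of the groups was that of IFI44, again without overlap. IFI44L rose by 0.65 ± 0.05 with APC siRNA and by 2.02 ± 0.05 with beta-catenin siRNA (adjusted p = 3.19e-09 and 1.69e-16), and TAZ siRNA raised it by 0.82 ± 0.05 and 1.40 ± 0.05 in the siAPC and sibcat backgrounds. EPSTI1, named for its induction in epithelial cells by stroma, went from 7.22 ± 0.09 in siGFP to 7.82 ± 0.06 in siAPC and 7.97 ± 0.13 in sibcat cells, and TAZ siRNA raised it to 8.14 ± 0.03 and 8.69 ± 0.08. Between siAPC and sibcat EPSTI1 differed by -0.15 ± 0.06 (adjusted p = 0.0692), a difference that passed without sibcat array D (-0.21, adjusted p = 0.00416), with the mean of both probe sets (-0.21, adjusted p = 0.0133), with genes under a mean signal of 5 or 7 left out (adjusted p = 0.0397 and 0.0243) or with a robust variance trend (adjusted p = 0.0417).

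PLSCR1, a phospholipid scramblase that hinders viral entry, was highest in sibcat/siTAZ cells and lowest in siAPC cells. Its signal was 11.03, 10.96, 11.05 and 11.05 in siGFP, 9.88, 9.83, 9.81 and 9.88 in siAPC and 9.98, 9.97, 9.94 and 9.98 in siAPC/siTAZ cells. It was 10.73, 10.69, 10.68 and 10.76 in sibcat and 11.32, 11.22, 11.28 and 11.35 in sibcat/siTAZ cells. The 5 groups did not overlap, and siAPC and siAPC/siTAZ stood about 1 unit below siGFP. PLSCR1 fell by 1.17 ± 0.04 with APC siRNA and by 0.31 ± 0.04 with beta-catenin siRNA (adjusted p = 1.87e-15 and 1.09e-06), and TAZ siRNA raised it by 0.58 ± 0.04 in the sibcat background (adjusted p = 1.56e-10). The rises of 0.12 ± 0.04 with TAZ siRNA in the siAPC background (adjusted p = 0.013) and of 0.27 ± 0.04 in sibcat/siTAZ against siGFP cells were 0.03 (adjusted p = 0.62) and 0.07 (adjusted p = 0.201) with the mean of the 3 PLSCR1 probe sets. The first was also lost with arrays centred on their medians (0.10, adjusted p = 0.0509).

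IFI35 and NMI are leucine-zipper proteins that bind each other. IFI35 was 6.19, 5.88, 6.14 and 6.04 in siGFP, 5.67, 5.80, 5.88 and 5.69 in siAPC and 5.88, 5.75, 5.88 and 5.77 in siAPC/siTAZ cells. It was 7.14, 6.88, 7.08 and 7.24 in sibcat and 7.74, 7.67, 7.68 and 7.74 in sibcat/siTAZ cells. The first 3 groups overlapped, and both groups with beta-catenin siRNA lay above them. IFI35 rose by 1.02 ± 0.07 with beta-catenin siRNA (adjusted p = 9.62e-10) and by 0.62 ± 0.07 more with TAZ siRNA, fell by 0.30 ± 0.07 with APC siRNA (adjusted p = 0.00225), and differed by 0.06 ± 0.07 with TAZ siRNA in the siAPC background (adjusted p = 0.567). NMI fell by 0.60 ± 0.05 with APC siRNA, from 8.94 ± 0.03 to 8.35 ± 0.03, and differed by 0.07 ± 0.05 with beta-catenin siRNA (adjusted p = 0.304). TAZ siRNA raised NMI by 0.33 ± 0.05 in the sibcat and by 0.13 ± 0.05 in the siAPC background (adjusted p = 0.0223). The latter call was lost without siAPC array C (0.12, adjusted p = 0.0608) or siAPC/siTAZ array B (0.10, adjusted p = 0.0957) and with arrays centred on their medians (0.11, adjusted p = 0.0692). The difference of -0.20 between the effects (adjusted p = 0.0257) was lost without siAPC array B, siAPC/siTAZ C, sibcat B or D, or sibcat/siTAZ A, at -0.19 to -0.17 and adjusted p of 0.0524 to 0.06.

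LGALS3BP, a secreted glycoprotein that binds galectins, rose with TAZ siRNA in both backgrounds, by 0.47 ± 0.08 to 8.80 ± 0.07 in siAPC/siTAZ and by 0.38 ± 0.08 to 9.08 ± 0.13 in sibcat/siTAZ cells. Its effects differed by 0.09 ± 0.11 (adjusted p = 0.604). The rise of 0.20 ± 0.08 in sibcat against siGFP cells (adjusted p = 0.043) was lost in turn without siGFP array A, B or D, siAPC A, B or C, siAPC/siTAZ D, or sibcat C or D, at 0.12 to 0.20 and adjusted p of 0.0506 to 0.18. It was also lost with quantile normalization repeated (0.15, adjusted p = 0.119), with the 2 groups fitted alone (adjusted p = 0.107) and with each probe set tested on its own (adjusted p = 0.0532). The difference of -0.18 ± 0.08 in siAPC against siGFP cells (adjusted p = 0.0735) passed without siGFP array A (-0.21, adjusted p = 0.0491) or sibcat array D (adjusted p = 0.0284), with either filter on low signals (adjusted p = 0.0462 and 0.0298), with quantile normalization repeated (-0.23, adjusted p = 0.0135), with a robust variance trend (adjusted p = 0.0313) or with the 2 groups fitted alone (adjusted p = 0.0219). XAF1, a pro-apoptotic factor, was dim at 3.68 ± 0.03 in siGFP cells and rose to 4.37 ± 0.18 in sibcat (adjusted p = 0.000542) and 5.07 ± 0.41 in sibcat/siTAZ cells (adjusted p = 0.000564), where array C stood at 5.67 and the others at 4.80 to 4.97. In siAPC cells all 4 XAF1 arrays lay below those of siGFP (-0.18 ± 0.14, adjusted p = 0.358), a difference that passed with the 2 groups fitted alone (adjusted p = 0.00929). LAMP3, a lysosomal membrane protein, had group means between 2.43 and 2.67 and was called in none of the 4 comparisons of a single depletion or of added TAZ siRNA (limma, adjusted p from 0.341 to 0.933, none at an unadjusted p under 0.05).

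**Figure D4:**
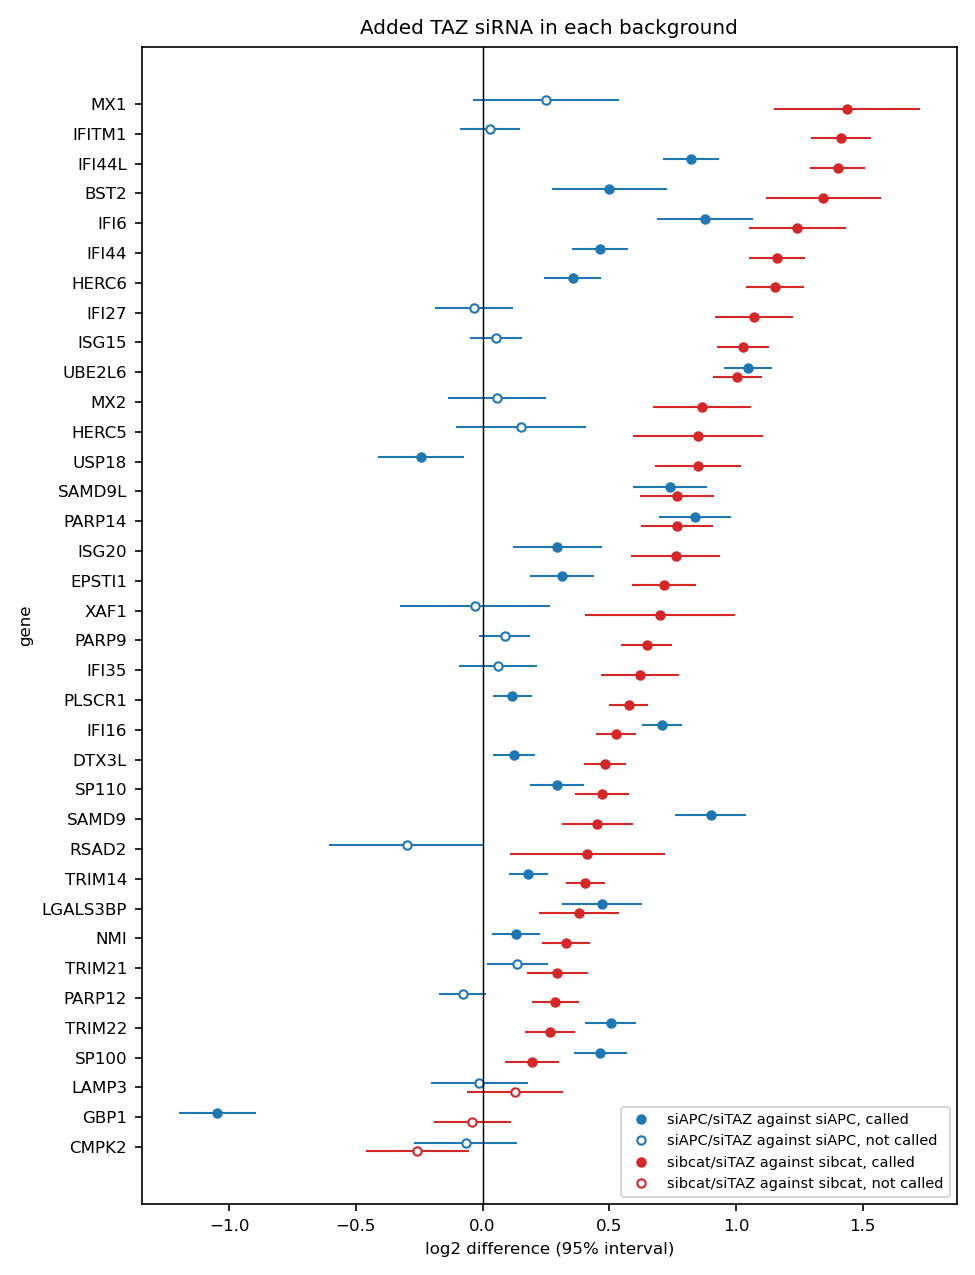
Log2 difference with added TAZ siRNA and its 95% interval for each of the 36 genes (rows) in the siAPC background (blue) and in the sibcat background (red); filled points passed the test and open points did not. MX1 (1.44), IFITM1 (1.42) and IFI44L (1.40) lead in the sibcat background, UBE2L6 (1.05) leads in the siAPC background, and GBP1 (-1.05) is the lowest point in the siAPC background.

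The effects of TAZ siRNA in the 2 backgrounds rest on separate arrays, with 1 shared estimate of the spread, but the compared groups differed by more than WWTR1. CTNNB1 fell by 1.41 from sibcat to sibcat/siTAZ cells and rose by 0.28 from siAPC to siAPC/siTAZ cells, where APC fell by 0.46. The part of these changes in the effects below and in their differences was not tested. All 20 genes that TAZ siRNA raised in the siAPC background were raised in the sibcat background as well. They are 55.6% of the 36 genes, where 11.3% of all genes rose in both backgrounds. They made up 100% of the first list and 60.6% of the second, and over all genes the shared part was 54.5% of 4102 and 62.8% of 3555. TAZ siRNA raised 33 of the 36 genes (91.7%) in the sibcat background, so most of any choice among them would be shared. The 100% therefore shows little about agreement gene by gene. The 20 genes were UBE2L6, HERC6, BST2, ISG20, SAMD9, SAMD9L, TRIM14, TRIM22, PARP14, DTX3L, IFI16, SP100, SP110, IFI6, NMI, IFI44, IFI44L, EPSTI1, LGALS3BP and PLSCR1. Genes that TAZ siRNA raised in the sibcat background and did not change past the threshold in the siAPC background included ISG15, MX1, MX2, IFITM1, IFI27, IFI35 and PARP9, and for each of these the difference between the effects passed the test, from -0.56 (PARP9 and IFI35) to -1.39 (IFITM1). It also passed for HERC5 (-0.70), RSAD2 (-0.71), XAF1 (-0.73) and PARP12 (-0.37), which showed the same pattern. For TRIM21, the last gene with this pattern, the difference passed only without siAPC/siTAZ array A (-0.22, limma, adjusted p = 0.0247). The effect was larger in the siAPC background for SAMD9 (0.45 ± 0.09), SP100 (0.27 ± 0.07), TRIM22 (0.24 ± 0.07) and IFI16 (0.18 ± 0.05). For UBE2L6, SAMD9L, PARP14 and LGALS3BP the effects differed by 0.04, -0.03, 0.07 and 0.09, with adjusted p of 0.712, 0.888, 0.678 and 0.604.

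The ISRE core was set beside these directions as a description. Of the 23 genes with a match, 15 rose and 3 fell with beta-catenin siRNA, where 21.4% of all genes rose and 15.7% fell. With APC siRNA 3 rose and 15 fell (all genes 21.3% and 18.7%). TAZ siRNA raised 13 and lowered 1 in the siAPC background (all genes 20.7% and 22.8%), and raised 22 in the sibcat background (all genes 18.0%). Of the 9 genes with a window and no match, 9 rose with beta-catenin siRNA, 5 fell with APC siRNA, and TAZ siRNA raised 6 and 8. These counts stand beside the same shares of all genes. ISG20, SAMD9 and PLSCR1, the 3 genes that beta-catenin siRNA lowered, all have a match, as have IFI6, ISG15 and IFI44, which it raised most. Several genes are neighbours on a chromosome, so they are not independent of each other in position: IFI44L with IFI44, CMPK2 with RSAD2, MX2 with MX1, PARP9 with DTX3L, HERC6 with HERC5 and SAMD9 with SAMD9L, with no other protein-coding gene between them. Of the last pair, SAMD9 fell with beta-catenin siRNA and SAMD9L rose.

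The genes that act before the 36 in the pathway showed the changes below. Among all genes tested, 21.3% rose and 18.7% fell with APC siRNA, and 21.4% rose and 15.7% fell with beta-catenin siRNA. With TAZ siRNA, 20.7% rose and 22.8% fell in the siAPC background, and 18.0% rose and 13.7% fell in the sibcat background. Counts here and in the following paragraphs are to be read beside those shares, and some lie near them. Of 18 interferon ligand genes measured of 20 listed, IFNE was the only one called in the 4 comparisons of a single depletion or of added TAZ siRNA. IFNE, a type I interferon of epithelia, was 5.82 ± 0.14 in siGFP, 6.43 ± 0.12 in siAPC, 7.81 ± 0.04 in siAPC/siTAZ, 5.40 ± 0.15 in sibcat and 6.34 ± 0.12 in sibcat/siTAZ cells. It thus rose with APC siRNA by 0.61 ± 0.08, fell with beta-catenin siRNA by 0.42 ± 0.08, and rose with TAZ siRNA by 1.38 ± 0.08 and 0.94 ± 0.08, and it was highest in siAPC/siTAZ cells. IFNB1, the interferon of most cell types, had group means between 3.28 and 3.42. Of 9 receptor and kinase genes, 5 fell and 1 rose with APC siRNA, 4 fell and 1 rose with beta-catenin siRNA, and TAZ siRNA raised 7 and lowered 1 in the siAPC and raised 3 in the sibcat background. IFNGR1, a chain of the interferon gamma receptor, rose most, by 1.10 ± 0.04 with TAZ siRNA in the siAPC background.

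Of 8 measured factors of 10 listed, 5 fell and 1 rose with APC siRNA, 4 rose and 3 fell with beta-catenin siRNA, and TAZ siRNA raised 3 and lowered 1 in the siAPC background and raised 5 in the sibcat background. IRF9 was 8.19 ± 0.09 in siGFP and fell to 7.64 ± 0.01 in siAPC and 7.32 ± 0.10 in siAPC/siTAZ cells. It rose to 8.82 ± 0.13 in sibcat and 9.37 ± 0.07 in sibcat/siTAZ cells. IRF1 fell by 1.27 ± 0.06 and IRF2 by 1.05 ± 0.04 with APC siRNA, and TAZ siRNA raised them by 0.71 ± 0.06 and 0.93 ± 0.04 in that background. IRF7 rose by 0.60 ± 0.10 with TAZ siRNA in the sibcat background.

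Of 13 genes for RNA and DNA sensors and their adaptors, 5 rose and 3 fell with beta-catenin siRNA, 2 rose and 4 fell with APC siRNA, and TAZ siRNA raised 7 and lowered 2 in the siAPC background and raised 8 and lowered 2 in the sibcat background. These are 38.5% and 23.1% (all genes 21.4% and 15.7%), then 15.4% and 30.8% (21.3% and 18.7%). With TAZ siRNA they are 53.8% and 15.4% (20.7% and 22.8%), then 61.5% and 15.4% (18.0% and 13.7%). The RNA sensor RIGI was 7.71 ± 0.08 in siGFP and 7.72 ± 0.02 in siAPC cells. It was 8.46 ± 0.04 in siAPC/siTAZ, 8.68 ± 0.04 in sibcat and 9.63 ± 0.07 in sibcat/siTAZ cells, and the 3 steps from siAPC to siAPC/siTAZ (0.75 ± 0.04), siGFP to sibcat (0.97 ± 0.04) and sibcat to sibcat/siTAZ (0.95 ± 0.04) passed the test. The sensor IFIH1 rose by 0.83 ± 0.05 with TAZ siRNA in the sibcat background. TLR3 fell by 1.22 ± 0.05 with APC siRNA and rose by 1.48 ± 0.05 with TAZ siRNA in the siAPC background. Its mean was 8.14 in siGFP, 7.44 in sibcat and 8.005 in sibcat/siTAZ cells. The 5 genes that restrain the pathway all fell with APC siRNA, 1 rose and 2 fell with beta-catenin siRNA, and TAZ siRNA lowered 3 in the siAPC and 2 in the sibcat background. Among them, SOCS3 fell by 1.07 ± 0.07 with TAZ siRNA in the siAPC background.

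Related target genes gave the counts below. Among all genes, 21.3% rose and 18.7% fell with APC siRNA, and 21.4% rose and 15.7% fell with beta-catenin siRNA. TAZ siRNA raised 20.7% and lowered 22.8% in the siAPC background, and raised 18.0% and lowered 13.7% in the sibcat background. Of the 8 IFIT and OAS genes, 6 fell and none rose with APC siRNA (limma, none at an unadjusted p under 0.05), 6 rose with beta-catenin siRNA, and TAZ siRNA raised 3 and lowered 2 in the siAPC and raised 7 in the sibcat background. IFIT1 rose by 2.22 ± 0.06 and OASL by 1.16 ± 0.11 with beta-catenin siRNA, and IFIT2 fell by 1.76 ± 0.10 with APC siRNA. Of 12 measured genes of MHC class I presentation among 13 listed, TAZ siRNA raised 12 in the siAPC and 11 in the sibcat background, among them HLA-B (1.11 ± 0.07 and 0.76 ± 0.07) and the proteasome subunit PSMB9 (1.20 ± 0.05 and 0.81 ± 0.05). APC siRNA lowered 6 of these 12 and raised 1, and beta-catenin siRNA raised 5 and lowered 1.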

How the data were processed

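The deposited values are log2 signals per probe set from 20 Affymetrix arrays, which the authors made with RMA, per the submitters' processing notes. Its version and the annotation build were not given in the sources used here. RMA brings all arrays to 1 distribution of signals and compresses differences of dim probe sets. Of 54675 probe sets, 62 controls were left out, 41097 had 1 gene symbol, 1801 several and 11777 none, and 41043 were matched to a current gene. Each of 19775 genes was read from its probe set with the highest mean. A model of 5 group means over all 20 arrays was fitted with limma 3.58.1 in R 4.3.3 (15 residual and 3.39 prior degrees of freedom), with Benjamini-Hochberg adjustment over all genes and a threshold of 0.05 on the adjusted p. No filter on low signals was set. The fit was tested on simulated data. Values of every array are given for genes among the 6 largest called differences of a comparison, or called in opposite directions by the single depletions, and the others are given by group means. The 36 genes, the pathway and marker lists and these rules were chosen with earlier results of these data known. Alternatives were quantile normalization repeated, arrays centred on their medians, the mean of all probe sets, every probe set tested alone, genes with a mean signal under 5 or under 7 left out, the replicate letter as a block, a robust variance trend, only the arrays of the groups compared, and each array left out in turn. With every probe set tested alone, the result was read at the chosen probe set of each gene.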

Additional observations from a re-analysis of the deposited data

Results flagged for a closer look

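In 11 of the 180 sets of 4 arrays (a gene in a group), 1 array stood apart from the other 3 by more than Dixon's 95% critical ratio. Chance gives about 1 in 20 such sets. On siGFP arrays these were MX2 at 4.53 on array A (the others 4.83 to 4.88), IFI27 at 7.48 on array B (7.65 to 7.66), IFI44L at 7.21 on array B (7.37 to 7.40) and GBP1 at 8.57 on array D (8.37 to 8.40). In siAPC cells SAMD9 was 9.11 on array C (the others 8.81 to 8.85) and IFI44L was 7.93 on array D (8.0 to 8.01). In siAPC/siTAZ cells SP100 was 9.06 on array C, with the other 3 at 9.08, and GBP1 was 6.89 on array D (7.09 to 7.11). In sibcat/siTAZ cells NMI was 9.42 on array A (9.30 to 9.32), MX1 was 6.74 on array B (7.14 to 7.22) and TRIM22 was 11.15 on array D (10.99 to 11.00). On sibcat/siTAZ array B, 30 of the 36 genes lay below their group mean, and on array D 29 lay above it.

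The effect of TAZ siRNA differed between the siAPC and sibcat backgrounds for 28 of the 36 genes by a direct test of the difference (limma, adjusted p under 0.05 over all genes). It was lower in the siAPC background for 24 and higher for 4, where 15.5% of all genes were lower and 12.2% higher. The compared groups also differed in CTNNB1 and APC, and the part of that was not tested. Values are the log2 effect in the siAPC background minus that in the sibcat background. In the ISG15 system the difference was -0.98 for ISG15, -0.70 for HERC5, -0.80 for HERC6 and -1.095 for USP18. Among restriction genes it was -1.19 for MX1, -0.81 for MX2, -0.71 for RSAD2, -1.39 for IFITM1, -0.85 for BST2, -0.47 for ISG20 and -1.01 for GBP1, while SAMD9 had 0.45. In the TRIM family it was -0.23 for TRIM14 and 0.24 for TRIM22. PARP9 had -0.56, PARP12 -0.37 and DTX3L -0.36, and the nuclear genes IFI16 and SP100 had 0.18 and 0.27. Of the remaining genes, IFI27 had -1.11, XAF1 -0.73, IFI44 -0.70, IFI44L -0.58, IFI35 -0.56, PLSCR1 -0.46, EPSTI1 -0.40, IFI6 -0.37 and NMI -0.20.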

How the results depend on the processing

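No value for the 36 genes reversed a called direction under the 9 alternatives run beside leaving out arrays (2392 of 2456 values kept their call) or without any 1 array (5652 of 5760), and calls gained or lost are given beside the differences printed for each gene. Several alternatives, among them every probe set tested alone, keep the differences of the chosen probe sets and could not reverse a direction. Of the 32 further probe sets, 12 to 26 were called the same way as the chosen one, depending on the comparison, and 1 (SP100) was called the opposite way, in sibcat/siTAZ against siGFP cells. For the rest, the further or the chosen probe set was not called. With the mean of all probe sets the median difference of the genes was 0.2171 in sibcat and 0.8312 in sibcat/siTAZ cells against siGFP, 0.5639 with TAZ siRNA in the sibcat background and -0.5611 in siAPC against sibcat cells. With genes under a mean signal of 7 left out it was 0.2175 in sibcat and 0.94 in sibcat/siTAZ cells against siGFP, 0.3338 with TAZ siRNA in the siAPC background and -0.3625 for the difference of the TAZ siRNA effects. With those under 5 left out, the median with TAZ siRNA in the siAPC background was 0.2925. The number that TAZ siRNA lowered in the siAPC background was 1 with genes under 7 left out and 1 to 3 without single arrays. In the sibcat background it was 1 (CMPK2) with quantile normalization repeated, with the replicate block or with a robust variance trend, and 0 to 1 without single arrays. Arrays were not paired by their letters: residuals of same-letter arrays correlated at a median of 0.027 (-0.0879 to 0.156 over 40 pairs), and 7 of 20 arrays matched their own letter best. With the letter as a block, 7407 genes in place of 7344 were called in sibcat against siGFP and 7952 in place of 7913 in siAPC against siGFP. Signal over background limits CMPK2, LAMP3, HERC5, RSAD2 and XAF1.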
